A study of Mus musculus with 12 samples.

Results

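The cytosolic HSP70 and HSP110 family was described as 9 genes (Hspa1a, Hspa1b, Hspa2, Hspa4, Hspa4l, Hspa8, Hspa13, Hspa14 and Hsph1) of the 12988 genes measured. These genes were taken by their symbols, and the values of their 18 transcripts in the deposited table were summed to a gene value. Expression values are read here as FPKM, which divides fragments by transcript length and library size, although no source names the unit. The 4 groups of mouse embryonic fibroblasts (MEF), sequenced as poly(A) RNA, were wild type cells (WT MEF) without LiCl, WT MEF with 20 mM LiCl for 48 h, HSF1 knock-out cells (HSF1 KO MEF) without LiCl, and HSF1 KO MEF with the same LiCl treatment. Each group had 3 libraries. Lithium chloride inhibits the kinase GSK3β and so activates WNT/β-catenin signaling, and the design asks how transcription with and without LiCl depends on HSF1. The labels give no embryo, clone or strain for the cells and do not say whether the libraries of a group are separate cultures. The study states that the sequencing was done 3 times, without saying what was repeated. The p-values thus cover the spread among these libraries, which may be technical.

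HSP70 proteins bind exposed hydrophobic stretches of client proteins in a cycle driven by ATP. J domain proteins deliver clients and start hydrolysis, and nucleotide exchange factors, the HSP110 proteins among them, reset the cycle. Heat shock factor 1 (HSF1) is the transcription factor that induces many of these genes upon proteotoxic stress, through heat shock elements made of inverted GAA units. Hspa1a and Hspa1b encode the stress-inducible HSP70. Hspa8 encodes the constitutive HSC70. Hspa2 encodes a relative known for its role in sperm formation. Hspa4, Hspa4l and Hsph1 encode HSP110 proteins. Hspa13 encodes a short relative found with microsomes, so the cytosolic name does not hold for it, and Hspa14 encodes a ribosome-associated relative.

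Promoter windows with heat shock element letters are shown first. RefSeq windows on GRCm38.p6, from 250 bases before to 50 bases after a transcription start, matched 7 of the 9 genes, with 2 windows for Hsph1. Hspa8 and Hspa13 had no window. The windows were searched on both strands for GAANNTTC and for TTCNNGAA, where N is any base, for CCAAT and for TATAAA. At least 1 of the first 2 motifs was in 15.1% of all 32851 windows, and in the windows of Hspa1a, Hspa1b and Hsph1 among the family. Hspa1a and Hspa1b are neighbouring genes without introns on the minus strand of chromosome 17, with 9951 bases between them, and the 250 bases upstream of their starts are printed because the pair rose together. Capitals mark GAANNTTC and then CCAAT, the second read from the other strand.
Hspa1a, chr17:34972157-34972406, minus strand: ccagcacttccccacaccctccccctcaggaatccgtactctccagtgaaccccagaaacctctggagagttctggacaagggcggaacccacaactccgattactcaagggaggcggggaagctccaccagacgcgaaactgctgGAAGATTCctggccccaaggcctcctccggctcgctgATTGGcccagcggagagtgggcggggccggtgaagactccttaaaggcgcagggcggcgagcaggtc
Hspa1b, chr17:34959239-34959488, minus strand: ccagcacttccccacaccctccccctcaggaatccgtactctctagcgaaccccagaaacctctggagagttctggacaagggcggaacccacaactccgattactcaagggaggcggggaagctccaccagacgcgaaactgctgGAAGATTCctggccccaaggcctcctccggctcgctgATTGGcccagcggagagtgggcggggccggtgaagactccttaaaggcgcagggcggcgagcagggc
The 300-base windows of the pair differed at 4 positions, 3 of them upstream of the start, and both held GAANNTTC at positions -104 to -97 from the start. GAANNTTC was in 7.86% of all windows.

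The window of Hsph1, on the minus strand of chromosome 5, held TTCNNGAA at positions -33 to -26 from its first start. It held a second copy after the start, at positions 37 to 44, which overlapped a GAANNTTC at positions 42 to 49. TTCNNGAA was in 8.52% of all windows. The 30 bases around each copy are printed because Hsph1 was the member that differed most between genotypes, with TTCNNGAA in capitals.
Hsph1 upstream copy, chr5:149636351-149636380, minus strand: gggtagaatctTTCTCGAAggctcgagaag
Hsph1 downstream copy, chr5:149636282-149636311, minus strand: aatgctgcagaTTCTGGAAagttctcctca
Neither motif was found in the windows of Hspa2, Hspa4, Hspa4l and Hspa14. CCAAT was in 37.4% of all windows and in those of Hspa1a, Hspa1b, Hspa2, Hspa14 and Hsph1, and TATAAA was in 13.6% of all windows and in none of the family. A match describes letters and does not show binding.

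The targeted gene was checked first. Hsf1 was at 11.1, 7.96 and 8.17 FPKM in WT MEF and at 0.939, 3.89 and 2.07 FPKM in HSF1 KO MEF (replicates 1, 2 and 3). With LiCl it was at 14.5, 13.3 and 11.2 FPKM in WT MEF and at 3.65, 7.64 and 5.92 FPKM in HSF1 KO MEF. Hsf1 was thus lower in HSF1 KO MEF without LiCl (log2 difference -1.70, adjusted p = 0.00142 from limma) and with LiCl (-1.10, adjusted p = 0.0159), but it was not at 0 in any library, and which exons the knock-out removes is not given in the sources used here. Both the study's text and its labels call these cells knock-out, whereas a legend of the study writes HSF1+/− for them, so HSF1 KO stands here for the label. In HSF1 KO MEF, Hsf1 itself was higher after LiCl (1.08, adjusted p = 0.0122). The difference in WT MEF was not called (0.49, adjusted p = 0.198), nor was the interaction (-0.60, adjusted p = 0.349), the response in WT MEF minus that in HSF1 KO MEF.

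Library sums ran from 344208 to 370025 FPKM. In each group the libraries are numbered 1 and 2 in the labels and the third carries no number, called replicate 3 here. The 4 libraries without a number stood together in some members: in every group they were lowest for Hspa8 and highest for Hspa13 and Hspa14, so values without them are given where a call changed. All 10 fibroblast markers were in the table, and their summed level was 4556 to 4882 FPKM in WT MEF, 1407 to 1464 FPKM with LiCl, 3100 to 3281 FPKM in HSF1 KO MEF and 1591 to 1660 FPKM with LiCl. In HSF1 KO MEF without LiCl, 6 of the 10 fibroblast markers were called lower and 1 higher, against 20.4% and 17.8% of all genes. Without LiCl, all 10 macrophage markers were higher in HSF1 KO MEF. Their sum was 1319 to 1530 FPKM in HSF1 KO MEF against 114 to 121 FPKM in WT MEF, 40.6 to 44.4 FPKM in WT MEF with LiCl and 100 to 116 FPKM in HSF1 KO MEF with LiCl, and Ptprc and Aif1 were listed at 0 in every group but HSF1 KO MEF without LiCl. Of 6 epithelial markers 3 were in the table, with sums of 7.99 to 9.74, 25.3 to 27.8, 3.18 to 4.81 and 30.4 to 34.0 FPKM in the same order of groups as for fibroblasts, of 4 skeletal muscle markers 1 was (3.19 to 16.1 FPKM), and none of 4 endothelial markers. The group of HSF1 KO MEF without LiCl enters the response of HSF1 KO MEF to LiCl, the interaction and the comparison of genotypes without LiCl. The part of the marked cell types in the family's values was not tested. In such bulk samples, a change in the share of a cell type and a change of RNA per cell cannot be told apart.

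The family made up a small share of all FPKM, and Hspa8 most of the family. In WT MEF the 9 genes summed to 547 ± 22.3 FPKM, and to 708 ± 28.9 FPKM with LiCl (SD, n = 3). The sums in HSF1 KO MEF were 582 ± 18.6 FPKM without and 625 ± 19.1 FPKM with LiCl. As a share of all FPKM this was 0.146 to 0.154% in WT MEF, 0.194 to 0.202% with LiCl, and in HSF1 KO MEF 0.158 to 0.167%, or 0.170 to 0.179% with LiCl. Hspa8 alone held 56.8 to 72.1% of the family's FPKM over the 12 libraries. Next by the mean over all libraries came Hspa4 and Hsph1, although Hsph1 lay below Hspa14 and near Hspa13 in HSF1 KO MEF without LiCl (means of 16.9, 18.6 and 16.8 FPKM). The inducible pair Hspa1a and Hspa1b together held 3.14 to 4.01% without LiCl and 6.67 to 8.63% with LiCl.

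**Figure D1:**
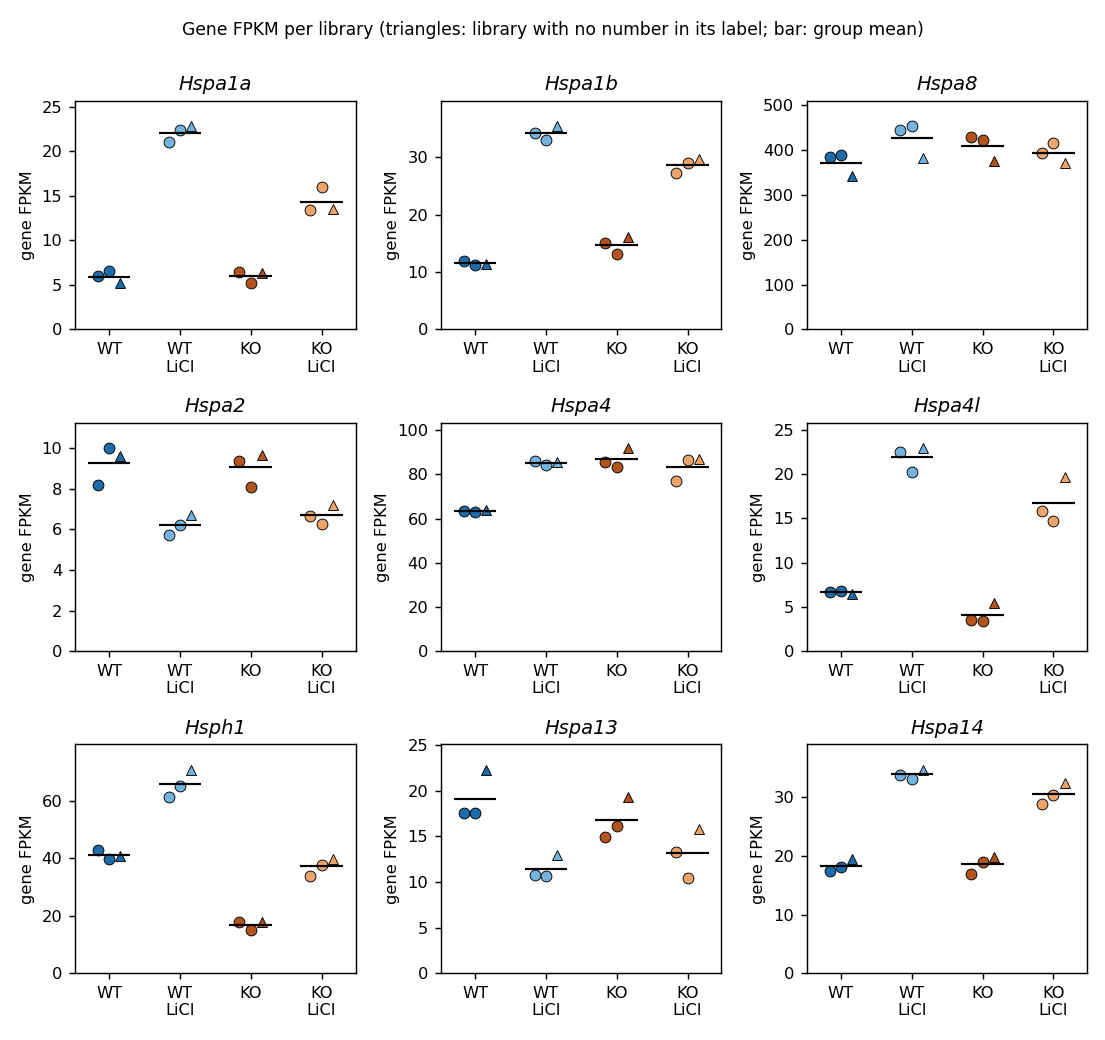
Gene FPKM (vertical axes from 0) of the 9 family members in each library of WT and HSF1 KO (KO) MEF with and without LiCl; points are libraries, triangles the libraries with no number in the label, and bars the group means. Hspa1a, Hspa1b, Hspa4l, Hspa14 and Hsph1 were higher with LiCl in both genotypes with no overlap, and Hsph1 was lower in HSF1 KO MEF with and without LiCl. The share of all genes that separate this way was not counted. By the test, 38.1% (WT) and 36.5% (KO) of all genes were called higher after LiCl.

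After LiCl, 6 of the 9 members rose in WT MEF (Hspa1a, Hspa1b, Hspa4, Hspa4l, Hspa14 and Hsph1) and 2 fell (Hspa2 and Hspa13). Among all 12279 genes tested, 38.1% rose and 27.1% fell in this comparison. In HSF1 KO MEF, 5 members rose, 1 fell and 3 were not called, against 36.5% and 21.1% of all genes. On the log2(FPKM + 1) scale the members' median difference was 0.66 for WT MEF and 0.69 for HSF1 KO MEF, beside medians of 0.13 and 0.16 over all genes. LiCl thus moved the median of all genes upward on this scale. When the libraries were scaled by the median of ratios, the medians of all genes were -0.015 and -0.0039, and the split of all calls went from 4680 higher and 3330 lower to 3817 and 3978 in WT MEF, and from 4480 and 2592 to 3237 and 3452 in HSF1 KO MEF. The members called in either LiCl comparison kept their direction and call under that scaling.

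**Figure D2:**
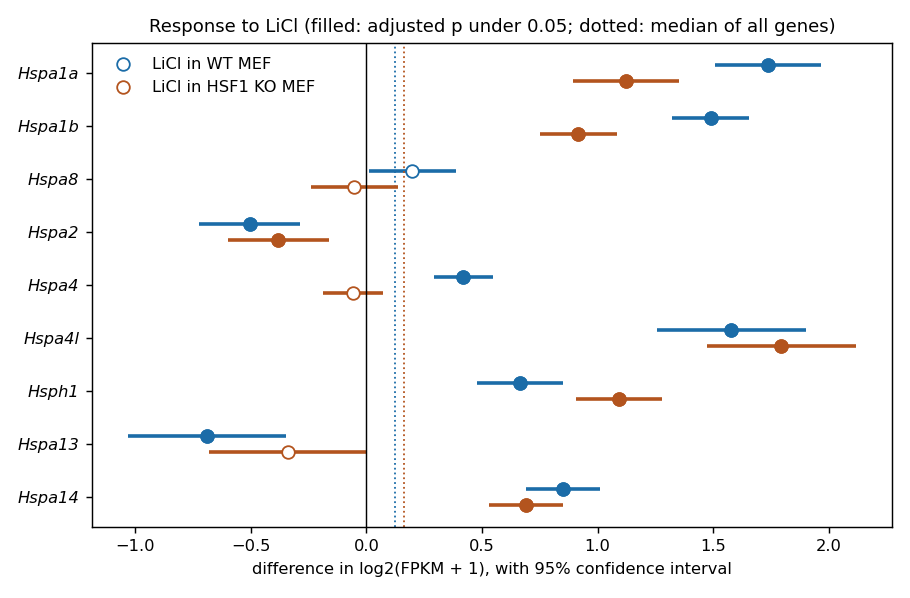
Difference in log2(FPKM + 1) between LiCl and no LiCl (horizontal axis, with 95% confidence intervals) for each member in either genotype; filled points passed an adjusted p of 0.05 and dotted lines are the medians of all genes. Hspa1a and Hspa1b lie further right in WT MEF, Hsph1 further right in HSF1 KO MEF, and Hspa4 was called only in WT MEF.

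The inducible HSP70 genes rose in both genotypes and rose more in WT MEF. Hspa1a was at 5.95, 6.61 and 5.24 FPKM in WT MEF and at 21.0, 22.4 and 22.8 FPKM with LiCl. The knock-out libraries had it at 6.43, 5.26 and 6.39 FPKM without and at 13.4, 16.0 and 13.5 FPKM with LiCl. The libraries without LiCl overlapped between genotypes, those with LiCl did not overlap with them or with each other, and WT MEF with LiCl was highest. The group mean rose 3.72-fold in WT MEF (log2 difference 1.74, standard error 0.10, adjusted p = 9.13e-08) and 2.37-fold in HSF1 KO MEF (log2 difference 1.12, standard error 0.10, adjusted p = 4.93e-06). The difference between the responses, the interaction, was 0.62 (standard error 0.15, adjusted p = 0.00868). This call was lost when the 4 libraries without a number were left out together (0.44, adjusted p = 0.126).

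Hspa1b, the neighbouring copy, was at 11.95, 11.2 and 11.5 FPKM in WT MEF and at 34.3, 32.9 and 35.4 FPKM with LiCl. The values in HSF1 KO MEF were 15.0, 13.1 and 16.2 FPKM without and 27.3, 29.0 and 29.7 FPKM with LiCl. No 2 of these 4 groups overlapped. Hspa1b rose 2.96-fold in WT MEF (1.49, standard error 0.075, adjusted p = 2.29e-08) and 1.94-fold in HSF1 KO MEF (log2 difference 0.92, standard error 0.075, adjusted p = 1.89e-06), with an interaction of 0.57 (standard error 0.11, adjusted p = 0.002). Across all genes, 15.3% had a larger and 16.1% a smaller difference in WT MEF by the interaction, and 3 members (Hspa1a, Hspa1b and Hspa4) and 1 member (Hsph1) did.

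Reads from this pair could be assigned to either copy. Of the 150-base stretches of the annotated Hspa1a transcript, 39.7% also occur in transcripts of other genes, and 40.5% of those of Hspa1b, with 1074 stretches shared by the pair. Hspa1l, a neighbouring HSP70 gene, shared 84 stretches with Hspa1a and 39 with Hspa1b. How reads that fit several places were treated is not given in the sources used here, so the split between the copies is uncertain and the sum is also given. Hspa1a and Hspa1b summed to 17.5 ± 0.659 FPKM in WT MEF and 56.3 ± 1.72 FPKM with LiCl (SD, n = 3). The sum was 20.8 ± 2.15 FPKM in HSF1 KO MEF and 43.0 ± 2.16 FPKM with LiCl. With LiCl the summed pair rose in WT MEF by 1.63 on the log2 scale (adjusted p = 1.13e-08) and by 1.02 in HSF1 KO MEF (adjusted p = 8.52e-07). It had an interaction of 0.62 (standard error 0.11, adjusted p = 0.00129). Hspa1a made up 28.3 to 30.0% of the pair in HSF1 KO MEF and 38 to 40.4% in WT MEF with LiCl, and the other groups lay between at 31.2 to 37.1%.

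Hspa8, the constitutive HSC70 gene and the most abundant member, was not called in any comparison. It was at 384, 388 and 343 FPKM in WT MEF and at 444, 454 and 383 FPKM with LiCl. The HSF1 KO MEF values were 429, 423 and 375 FPKM without and 395, 416 and 373 FPKM with LiCl. The groups overlapped in both LiCl comparisons, and replicate 3 was lowest each time. The log2 difference with LiCl was 0.20 in WT MEF (95% interval 0.0093 to 0.39, adjusted p = 0.0622) and -0.052 in HSF1 KO MEF (-0.24 to 0.14, adjusted p = 0.626). The interaction was 0.25 (-0.017 to 0.52, adjusted p = 0.147). Without the 4 libraries that carry no number, the difference in WT MEF was 0.22 and passed (adjusted p = 0.00693), as did the interaction (0.29, adjusted p = 0.0218) and the genotype difference with LiCl (-0.15, adjusted p = 0.0462). The rise in WT MEF also passed without WT MEF LiCl replicate 3 alone (0.27, adjusted p = 0.0165), without HSF1 KO MEF replicate 3 alone (0.20, adjusted p = 0.0498) and under quantile normalization (0.36, adjusted p = 0.00151). Quantile normalization also called the interaction (0.32, adjusted p = 0.0409) and the genotype difference with LiCl (-0.26, adjusted p = 0.0159). Under median-of-ratios scaling the difference was 0.022 in WT MEF (adjusted p = 0.862), and in the knock-out it was -0.26 and passed as a fall (adjusted p = 0.0427).

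Most of Hspa8 was the transcript ENSMUST00000015800.15, 2394 bases long, and its values were steadier than the gene sum in WT MEF. It was at 281, 285 and 271 FPKM in WT MEF and at 348, 350.4 and 331 FPKM with LiCl. The HSF1 KO MEF libraries held it at 322, 337 and 315 FPKM without and at 287, 237 and 307 FPKM with LiCl. In the test across transcripts it was higher after LiCl in WT MEF (0.30, adjusted p = 0.0175) and was not called in HSF1 KO MEF (-0.24, adjusted p = 0.0563). It had an interaction of 0.53 (adjusted p = 0.0154). The shorter ENSMUST00000117557.7, of 2019 bases, was at 42.7 to 61.3 FPKM in the libraries without a number and at 73.97 to 170.2 FPKM in the others. Its highest value was in HSF1 KO MEF LiCl replicate 2, where the main transcript was lowest (237 FPKM) and the gene sum was 416 FPKM. Level may thus have moved between these transcripts, so the main one is not read on its own. The interaction of the gene sum was not called (0.25, adjusted p = 0.147). Of the 150-base stretches of the main transcript, 55.4% also occur in other genes' transcripts, most of them in the gene model Gm15459, and the share was 66.4% for the shorter one, so Hspa8 levels are uncertain to that extent. Of 17 member transcripts tested, 9 were called after LiCl in WT MEF and 5 in the knock-out, against 35.9% and 29.1% of all transcripts in either direction.

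Hspa2 fell in both genotypes. It was at 8.20, 10.004 and 9.59 FPKM in WT MEF and at 5.74, 6.23 and 6.70 FPKM with LiCl. In the knock-out it was at 9.36, 8.10 and 9.67 FPKM without and at 6.64, 6.25 and 7.22 FPKM with LiCl. The libraries with LiCl lay below those without in each genotype, and the genotypes overlapped. The difference was -0.51 in WT MEF (standard error 0.10, adjusted p = 0.000988) and -0.38 in HSF1 KO MEF (adjusted p = 0.00691), and the interaction was -0.12 (95% interval -0.43 to 0.19, adjusted p = 0.553). Most of its level came from the single-exon transcript ENSMUST00000219555.1, at 3.87 to 10.004 FPKM. In the test across transcripts, this transcript fell in WT MEF (-0.63, adjusted p = 0.0166) and was not called in HSF1 KO MEF (-0.30, adjusted p = 0.239).

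The 3 HSP110 genes are given one by one, and their responses were not tested against each other. Hspa4 was at 63.6, 63.1 and 63.9 FPKM in WT MEF and at 85.9, 84.3 and 85.5 FPKM with LiCl. The HSF1 KO MEF libraries had 85.6, 83.2 and 91.9 FPKM without and 77.0, 86.5 and 86.9 FPKM with LiCl. WT MEF without LiCl stood alone below the other 3 groups, which overlapped. Hspa4 rose in WT MEF (1.34-fold, 0.42, standard error 0.058, adjusted p = 7.46e-05) and was not called in HSF1 KO MEF (-0.058, 95% interval -0.19 to 0.070, adjusted p = 0.418). The interaction was 0.48 (standard error 0.082, adjusted p = 0.00121). Under median-of-ratios scaling the difference in HSF1 KO MEF was -0.26 and passed (adjusted p = 0.00205), while that in WT MEF was 0.24 (adjusted p = 0.00243).

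Hspa4l rose most among the HSP110 genes, from a low level. It was at 6.67, 6.76 and 6.50 FPKM in WT MEF and at 22.5, 20.2 and 22.9 FPKM with LiCl. It was at 3.49, 3.48 and 5.46 FPKM in HSF1 KO MEF and at 15.8, 14.7 and 19.6 FPKM there with LiCl. LiCl separated the libraries in each genotype, and HSF1 KO MEF lay below WT MEF both without and with LiCl. The mean rose 3.29-fold in WT MEF (1.58, standard error 0.15, adjusted p = 3.06e-06) and 4.03-fold in HSF1 KO MEF (log2 difference 1.80, standard error 0.15, adjusted p = 1.78e-06). The interaction was -0.22 (95% interval -0.67 to 0.24, adjusted p = 0.473). ENSMUST00000204702.2, the longest of its 3 transcripts in the table, held most of the level and rose in both genotypes in the test across transcripts (1.68, adjusted p = 3.6e-05, and 1.54, adjusted p = 0.000103). In HSF1 KO MEF against WT MEF it was not called without LiCl (-0.45, adjusted p = 0.131) and was lower with LiCl (-0.59, adjusted p = 0.0442). ENSMUST00000203353.2, from a mean of 0.283 FPKM, rose in the knock-out (1.88, adjusted p = 0.025) and was not called in WT MEF (0.27, adjusted p = 0.745).

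By the interaction, Hsph1 was the 1 member called with a larger log2 rise in HSF1 KO MEF, where it started lower. It was at 42.8, 39.8 and 40.7 FPKM in WT MEF and at 61.4, 65.2 and 70.8 FPKM with LiCl. Its HSF1 KO MEF values were 17.7, 15.2 and 17.9 FPKM without and 34.0, 37.9 and 39.9 FPKM with LiCl. LiCl brought HSF1 KO MEF close to untreated WT MEF, where the libraries overlapped narrowly. The mean rose 1.60-fold in WT MEF (0.66, standard error 0.084, adjusted p = 3.76e-05) and 2.20-fold in HSF1 KO MEF (log2 difference 1.09, standard error 0.084, adjusted p = 1.14e-06). The interaction was -0.43 (standard error 0.12, adjusted p = 0.0182).

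The transcripts of Hsph1 swapped between libraries while the gene sum did not. ENSMUST00000202089.3 ranged from 0 to 55.4 FPKM and ENSMUST00000074846.13 from 0 to 35.8 FPKM. In WT MEF, for example, the first was at 36.1, 0 and 28.9 FPKM and the second at 0, 35.8 and 0 FPKM. The standard deviation of the gene sum was 3.77 to 8.99% of its mean in the 4 groups. ENSMUST00000202361.3 was lower after LiCl in WT MEF in the test across transcripts (-2.33, adjusted p = 0.0487), opposite to the gene sum. A value of 0 here can stand for a transcript that the assembler did not assign, so no transcript of Hsph1 is read on its own.

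**Figure D3:**
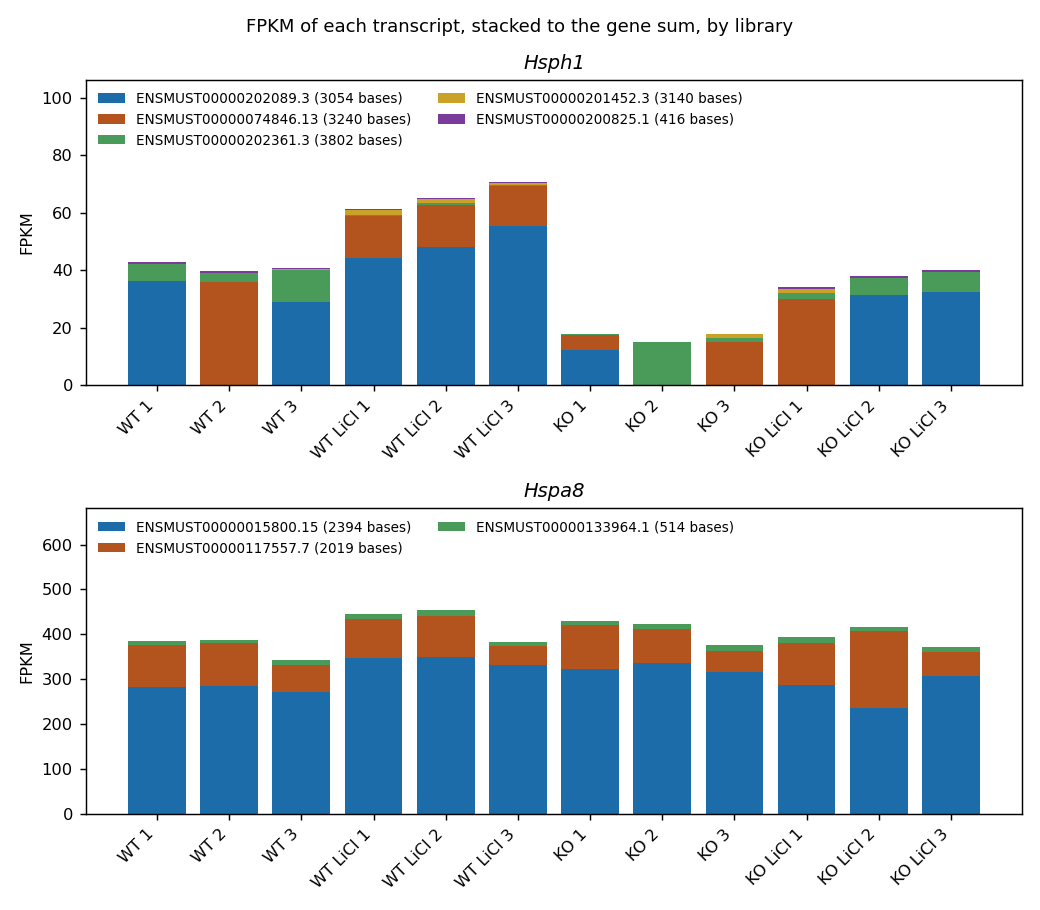
FPKM of each transcript (vertical axes, stacked to the gene sum) of Hsph1 and Hspa8 in the 12 libraries, numbered within WT and HSF1 KO (KO) MEF with and without LiCl. The leading Hsph1 transcript differs between libraries of a group, such as 36.1, 0 and 28.9 FPKM of ENSMUST00000202089.3 in WT MEF, while the stack height differs little.

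Hspa13 fell and Hspa14 rose. Hspa13 was at 17.5, 17.6 and 22.3 FPKM in WT MEF and at 10.8, 10.7 and 13.0 FPKM with LiCl. In HSF1 KO MEF it was at 14.9, 16.1 and 19.3 FPKM without and at 13.2, 10.5 and 15.8 FPKM with LiCl. Replicate 3 was highest in all 4 groups, and the libraries with and without LiCl overlapped in HSF1 KO MEF but not in WT MEF. The difference with LiCl was -0.69 in WT MEF (standard error 0.15, adjusted p = 0.00236) and -0.34 in HSF1 KO MEF (95% interval -0.68 to 0.0036, adjusted p = 0.0841), with an interaction of -0.35 (-0.83 to 0.13, adjusted p = 0.262). The fall in HSF1 KO MEF passed under median-of-ratios scaling (-0.53, adjusted p = 0.00962), under quantile normalization (-0.50, adjusted p = 0.013), without HSF1 KO MEF LiCl replicate 3 (-0.47, adjusted p = 0.0258) and without the 4 libraries that carry no number (-0.37, adjusted p = 0.0331). It was smallest without HSF1 KO MEF LiCl replicate 2, at -0.19, and was not called there.

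Hspa14 was at 17.4, 18.2 and 19.5 FPKM in WT MEF and at 33.8, 33.2 and 34.7 FPKM with LiCl. The knock-out had 16.9, 19.0 and 19.8 FPKM without and at 28.8, 30.4 and 32.4 FPKM with LiCl. Both LiCl groups lay above both untreated groups, and the untreated groups overlapped. Hspa14 rose 1.84-fold in WT MEF (0.85, standard error 0.073, adjusted p = 1.65e-06) and 1.64-fold in HSF1 KO MEF (log2 difference 0.69, standard error 0.073, adjusted p = 1.35e-05), with an interaction of 0.16 (95% interval -0.067 to 0.39, adjusted p = 0.276). Of its 150-base stretches, 10.5% occur in the overlapping gene model Gm45902.

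The genotypes were then compared at the same treatment. Without LiCl, Hsph1 and Hspa4l were lower in HSF1 KO MEF and Hspa4 and Hspa1b were higher, so 2 of 9 members were called in each direction, against 20.4% of all genes lower and 17.8% higher. Hsph1 had a ratio of means of 0.412 to WT MEF (log2 difference -1.23, standard error 0.084, adjusted p = 6.48e-07). Hspa4l had a difference of -0.59 (standard error 0.15, adjusted p = 0.00802). Hspa4 differed by 0.44 (standard error 0.058, adjusted p = 0.000116) and Hspa1b by 0.32 (standard error 0.075, adjusted p = 0.00579). The Hspa1b call was lost without the 4 libraries that carry no number (0.26, adjusted p = 0.0611), which left 1 member higher. Hspa1a, the other copy of the pair, was not called (0.020, 95% interval -0.21 to 0.25, adjusted p = 0.909), and the summed pair was higher in HSF1 KO MEF (0.23, adjusted p = 0.0315). The macrophage markers were higher in these HSF1 KO MEF libraries as given above, and their part in these differences was not tested.

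By the adjusted p from limma, 3 members were lower in HSF1 KO MEF with LiCl (Hsph1, Hspa1a and Hspa1b) and none was higher. Among all genes, 23% were lower and 19.6% higher. Without the adjustment, at the same threshold of 0.05, none was higher either, and Hspa4l was lower too. Hsph1 differed by -0.80 (standard error 0.084, adjusted p = 2.05e-05) and Hspa1a by -0.60 (standard error 0.10, adjusted p = 0.000853). Hspa1b differed by -0.25 (adjusted p = 0.0212), and this call was lost without WT MEF LiCl replicate 1 (adjusted p = 0.0552), WT MEF LiCl replicate 3 (0.07) or HSF1 KO MEF LiCl replicate 1 (0.0775), without the 4 libraries that carry no number (0.0635) and under quantile normalization (0.0503). The summed pair was lower by 0.38 on the log2 scale (adjusted p = 0.00189). Hspa4l was lower with no overlap and did not pass (-0.38, adjusted p = 0.0595). It passed without HSF1 KO MEF replicate 3 (-0.38, adjusted p = 0.0136), without HSF1 KO MEF LiCl replicate 3 (-0.49, adjusted p = 0.0265), with only the 6 libraries compared in the fit (adjusted p = 0.0464) and without the 4 libraries that carry no number (-0.46, adjusted p = 0.00782). The genotype and LiCl comparisons share libraries, so their values are set side by side and not correlated.

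**Figure D4:**
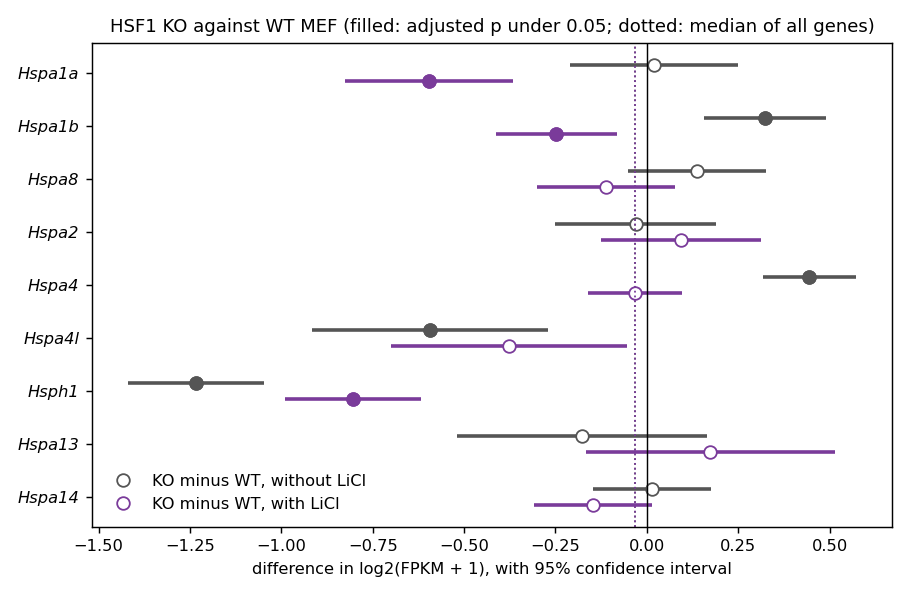
Difference in log2(FPKM + 1) of HSF1 KO minus WT MEF (horizontal axis, with 95% confidence intervals) for each member without and with LiCl; filled points passed an adjusted p of 0.05 and dotted lines are the medians of all genes. Hsph1 lies furthest left in both, Hspa4 lies to the right without LiCl at 0.44 and near 0 with LiCl at -0.032, and Hspa1a moves from 0.020 to -0.60.

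The partners of HSP70 were counted from lists, to be read beside the shares of all genes called: 38.1% higher and 27.1% lower after LiCl in WT MEF, 36.5% and 21.1% in the knock-out. Of 17 J domain co-chaperones, 7 rose, 2 fell and 8 were not called after LiCl in WT MEF, and the counts were the same in HSF1 KO MEF. Their median difference was 0.18 in WT MEF and 0.27 in the knock-out, beside medians of all genes of 0.13 and 0.16. Scaled by the median of ratios, WT MEF had 5 higher and 3 lower, and the knock-out 4 and 3. Dnajb5, a cytosolic J protein gene, rose in WT MEF from 9.31 ± 0.609 to 29.2 ± 2.94 FPKM (SD, n = 3, log2 difference 1.55, adjusted p = 1.32e-05), and Dnaja4 from 12.4 ± 0.247 to 22.7 ± 0.470 FPKM (0.83, adjusted p = 3.52e-07). Dnajc13, whose product acts at endosomes, rose in WT MEF from 16.0 ± 1.79 to 30.6 ± 2.01 FPKM and by the interaction rose more there (0.61, adjusted p = 0.00667). Dnajc9, whose product is also a histone chaperone, had an interaction of -0.97 (adjusted p = 0.00829), at 7.21 ± 2.14 and 14.9 ± 1.39 FPKM in WT MEF against 7.85 ± 0.281 and 33.6 ± 4.45 FPKM in HSF1 KO MEF. Dnajb14 had an interaction of -0.44 (adjusted p = 0.0469), which was lost under quantile normalization (-0.36, adjusted p = 0.0806).

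Of 12 nucleotide exchange factors and other cytosolic partners, 6 rose, 3 fell and 3 were not called in WT MEF, and the knock-out had 7, 2 and 3, with medians of 0.29 and 0.21. Scaled by the median of ratios, WT MEF had 6 higher and 6 lower, and the knock-out 4 and 2. Bag1, an exchange factor gene, rose in WT MEF from 63.9 ± 4.06 to 127 ± 3.74 FPKM (0.98, adjusted p = 8.34e-07) and was at 77.4 ± 5.34 and 115 ± 10.3 FPKM in HSF1 KO MEF, with an interaction of 0.42 (adjusted p = 0.0137). Bag3, an exchange factor gene that acts in selective autophagy, fell in WT MEF from 69.3 ± 2.31 to 46.5 ± 2.39 FPKM (-0.56, adjusted p = 7.95e-06). Chordc1, an HSP90 partner gene, rose in WT MEF from 15.2 ± 1.27 to 32.2 ± 3.99 FPKM (1.03, adjusted p = 3.57e-05). Bag2 had an interaction of -0.36 (adjusted p = 0.0165). Stip1, which links HSP70 to HSP90, had an interaction of -0.20 (adjusted p = 0.0356), at 117 ± 2.58 and 117 ± 1.42 FPKM in WT MEF against 126 ± 1.23 and 146 ± 6.76 FPKM in HSF1 KO MEF, and this call was lost under median-of-ratios scaling (-0.18, adjusted p = 0.0999).

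Among 6 HSP70 relatives outside the family, WT MEF had 2 that rose and 1 that fell and HSF1 KO MEF 1 of each, with medians of 0.17 in each. Hspa9, the mitochondrial HSP70 gene, rose in WT MEF from 133 ± 2.10 to 291 ± 5.61 FPKM (1.12, adjusted p = 3.53e-09), was at 162 ± 4.66 and 261 ± 7.82 FPKM in HSF1 KO MEF, and had an interaction of 0.44 (adjusted p = 0.000374). Hspa12b fell in WT MEF from 3.39 ± 0.0632 to 0.712 ± 0.149 FPKM (-1.36, adjusted p = 4.59e-06) and Hspa12a rose from 2.68 ± 0.138 to 4.77 ± 0.140 FPKM (0.65, adjusted p = 9.85e-05). Their interactions were -0.76 (adjusted p = 0.0106) and 0.43 (adjusted p = 0.028).

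Of 20 heat shock genes outside the family that are known as HSF1 targets, 11 rose, 4 fell and 5 were not called in WT MEF, and the knock-out had 10, 3 and 7, with medians of 0.31 and 0.22. Under median-of-ratios scaling the counts were 9, 5 and 6 and, in the knock-out, 7, 4 and 9. The interaction called 3 of them larger in WT MEF, 2 smaller and 15 neither, with a median of 0.041, against 15.3% larger and 16.1% smaller among all genes. Without LiCl, HSF1 KO MEF had 3 higher and 3 lower and 14 were not called, against 17.8% and 20.4% of all genes. Hspe1, the mitochondrial HSP10 gene, rose in WT MEF from 76.0 ± 5.82 to 251 ± 6.70 FPKM (1.71, adjusted p = 2.12e-08), and its interaction was 0.64 (adjusted p = 0.00215). Cacybp rose in WT MEF by 0.89 (adjusted p = 4.85e-07), with an interaction of 0.49 (adjusted p = 0.00219). Trib1, a pseudokinase gene, fell in WT MEF from 8.11 ± 0.402 to 3.27 ± 0.138 FPKM (-1.09, adjusted p = 4.35e-07). Hspb1 fell further there, from 146 ± 12.1 to 50.1 ± 4.45 FPKM (-1.52, adjusted p = 8.39e-07), and also fell in the knock-out (-1.36, adjusted p = 3.33e-06). Bag3, given above, and Serpinh1 (-0.66, adjusted p = 0.00248) were the others that fell in WT MEF. Fkbp4, an HSP90 co-chaperone gene, had an interaction of -0.59 (adjusted p = 0.00127), at 30.2 ± 2.23 and 42.5 ± 0.650 FPKM in WT MEF against 28.9 ± 2.09 and 62.1 ± 3.999 FPKM in HSF1 KO MEF.

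The last list held chaperones of the endoplasmic reticulum that the unfolded protein response induces. Of 13 such genes, 3 rose, 7 fell and 3 were not called in WT MEF, and in the knock-out 6 fell and 7 were not called, with medians of -0.43 and -0.21. Under both other scalings 1 rose and 8 fell in WT MEF. Hsp90b1, the HSP90 gene of that compartment, fell in WT MEF from 404 ± 6.25 to 184 ± 1.95 FPKM (-1.13, adjusted p = 3.35e-09). The protein disulfide isomerase genes Pdia6 and Pdia4 fell in WT MEF by 1.10 (adjusted p = 1.63e-07) and by 0.80 (adjusted p = 2.26e-07) on the log2 scale. The interaction called 2 of the 13 larger in WT MEF and 2 smaller, against 15.3% and 16.1% of all genes. The 4 were Herpud1 (-0.41, adjusted p = 0.0412), Pdia4 (-0.34, adjusted p = 0.00575), Dnajb9 (0.83, adjusted p = 0.0359) and Calr (0.25, adjusted p = 0.0398). The Calr call was lost under quantile normalization (adjusted p = 0.0617).

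Genes whose pattern was nearest to a member were found by the root mean square difference of centred log2(FPKM + 1) over the 12 libraries. For Hspa1a they were Fam216a (0.110), Akr1b8 (0.113) and Asna1 (0.115), where the member's own root mean square was 0.752. Vat1 (0.0747), Atp1b3 (0.0798) and Mrpl45 (0.0875) were nearest to Hspa1b, with 0.622 for the member. Hspa4 was closest to Tnfaip1 (0.0447), Ebp (0.0656) and Cyb5b (0.0658), with 0.188 for the member. Tnfaip1 was at 26.9 FPKM in WT MEF and at 35.8, 38.6 and 35.5 FPKM in the means of WT MEF with LiCl, HSF1 KO MEF and HSF1 KO MEF with LiCl, the same order of one low group as Hspa4. Tbx4 (0.130), Asap3 (0.131) and Fam13c (0.168) came nearest to Hsph1, with 0.686 for the member, and Per2 (0.192), Rfx2 (0.195) and Dapk1 (0.196) to Hspa4l, with 0.893. Tbx4 was at 12.7, 19.7, 4.99 and 11.03 FPKM in the means of the same 4 groups, WT MEF first.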

How the data were processed

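The family members, the lists and the tests were chosen with earlier results of these data known. RNA of the 12 libraries was poly(A) selected and sequenced with a stranded kit over 150 cycles. For the alignment and assembly, the submitters' notes list GRCm38, HISAT2 2.0.5, StringTie and cutadapt (annotation, options and strand setting: not given in the sources used here). A table was deposited by the authors, with values of 27185 transcripts that are read here as FPKM. No source names the unit, which was taken from library sums that differ and are below what TPM sums to. Low transcripts are absent, the lowest of the highest group means being 0.5 FPKM. FPKM holds no read counts and the depth in reads is unknown, so precision was taken from the spread between libraries.

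Transcripts were matched by ID without version to GENCODE vM21 (27115 matched, 70 not, at most 0.136% of a library) and summed to genes with pandas 2.3.3 in Python 3.11.15. Genes that averaged 0.5 FPKM or more over all libraries (12279, all 9 members among them, 709 not) were tested with limma 3.58.1 in R 4.3.3, by empirical Bayes with its trend option on log2(FPKM + 1). A single model held the 4 groups, with p-values adjusted by Benjamini-Hochberg over all genes and a threshold of 0.05. This scale understates changes of low genes. Transcripts were tested the same way. The fit was tested on simulated data. Named list genes were up to 3 with the smallest adjusted p after LiCl in WT MEF and up to 3 in the interaction. Herpud1, Hspb1 and Serpinh1 were named beyond that rule, to complete the calls of their lists. The alternatives were a pseudocount of 0.1, no filter, a mean of at least 1 FPKM, median-of-ratios scaling, quantile normalization, a replicate block, the pair Hspa1a and Hspa1b summed, only the 6 libraries compared, and each library left out. Leaving out together the 4 libraries without a number in the label was chosen after seeing the data. Sequences are from RefSeq windows on GRCm38.p6.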

Additional observations from a re-analysis of the deposited data

Results flagged for a closer look

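The responses of 4 members to LiCl differed between the genotypes by the interaction test of limma, 3 larger in WT MEF and 1 smaller. Among all genes, 15.3% were called larger and 16.1% smaller. The response in WT MEF minus that in HSF1 KO MEF was 0.62 for Hspa1a (standard error 0.15, adjusted p = 0.00868), 0.57 for Hspa1b (standard error 0.11, adjusted p = 0.002), 0.48 for Hspa4 (standard error 0.08, adjusted p = 0.00121) and -0.43 for Hsph1 (standard error 0.12, adjusted p = 0.0182), on the log2(FPKM + 1) scale with 3 libraries in each of the 4 groups. The Hspa1a call was lost without the 4 libraries that carry no number (0.44, adjusted p = 0.126). Hspa1a and Hspa1b share stretches of sequence, so their values are not independent of each other. With 3 libraries a group, no sample was tested as standing apart.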

How the results depend on the processing

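Of the alternatives for single members, 890 kept direction and call, 27 newly passed, 7 no longer passed and 12 changed sign, and for the counts of members 200 of the recomputed counts lay within 1.5 times the reported count. The number of members lower after LiCl in HSF1 KO MEF was 1, and became 4 under median-of-ratios scaling, 2 under quantile normalization, 2 with a replicate block, 2 with only the 8 libraries that carry a number, and 1 to 2 when a library was left out. Among all 12279 genes tested, 2592 were lower there, and 3452 under median-of-ratios scaling, 2895 under quantile normalization and 2748 with the block. With only the 8 numbered libraries, 2387 of 12263 genes were. The members higher in HSF1 KO MEF without LiCl went from 2 to 1 with only those 8 libraries, and all such genes from 2181 to 2012. With the replicate block, members smaller in the interaction went from 1 to 2 and members lower in HSF1 KO MEF with LiCl from 3 to 6. Over all genes the block took these counts from 1971 to 2220 and from 2820 to 3123. Among the members, 8 differences newly passed with it, 4 of Hspa8, 2 of Hspa13 and 1 each of Hspa4l and Hspa14. The block is no more than a shared number, since the labels do not say what it marks: deviations of same-numbered libraries correlated at 0.00371 to 0.195, above 0.1 only among the 4 libraries without a number (0.125 to 0.195). Every value that changed sign was uncalled before and after: Hspa8 after LiCl in HSF1 KO MEF (0.039) and Hspa2 between genotypes without LiCl (0.032) under quantile normalization, Hspa1a between genotypes without LiCl (-0.093) with only the 8 numbered libraries, and, with a library left out, the genotype differences without LiCl of Hspa1a (range -0.054 to 0.10), Hspa2 (-0.11 to 0.039) and Hspa14 (-0.033 to 0.076) and that with LiCl of Hspa4 (-0.062 to 0.025). The cause of these changes was not tested. With no read counts, what depth limits could not be given.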
